A study of Sus scrofa with 12 samples.

Results

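The microRNA-named probe sets of a porcine whole-transcriptome array were examined in the livers of pigs divergent in residual feed intake (RFI), the gap between what a pig eats and what its growth and maintenance predict. All probe sets whose identifier holds mir or let after a species prefix were taken, with no filter on their values, which gave 1858 of 47845 probe sets (3.88%). The prefix names the species whose entry the probes were designed on, with 731 human (hsa), 623 cattle (bta), 446 mouse (mmu) and 58 pig (ssc) probe sets. The prefixes were used to group the probe sets by the number and letter of the microRNA, which gave 1364 numbers. For 236 of these numbers the array held probe sets from at least 2 species, 659 probe sets in all.

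Livers were taken on day 140 from 12 pigs fed ad libitum, progeny of Large White × Landrace sows and Hylean Maxgro sires, and each was hybridized to its own Affymetrix snowball array. By the sample labels, 6 pigs were low RFI and 6 high RFI, with 3 females and 3 males in each class. A single pig is called by the letter P with its title's number. The study chose siblings of like sex that diverged in RFI, but the labels do not say which pigs were littermates, so the fit has the class alone and does not pair siblings. Values are log2 intensities after robust multi-array averaging (RMA), which corrects the background, equalizes the arrays and gives 1 value per probe set. Differences are low RFI minus high RFI by the sample labels. The signs that result are opposite to those in the study's own results, for instance in bta-mir-2378, mmu-mir-142 and JMJD1C, although the study subtracts in the same order. Whether the class labels were exchanged in the deposited records or in the study could not be settled here, and if those of the records were, all directions between the RFI classes given here turn round. The differences were tested in limma, which pools information on variance over all probe sets and gives the SE. A probe set was called at a q under 0.30, where q is Storey's estimate of the false discovery rate over all probe sets.

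A microRNA is made as a stem-loop within a longer transcript. The nuclear enzyme DROSHA with its partner DGCR8 cuts the stem-loop out, DICER1 trims it in the cytoplasm, and an Argonaute protein takes up the short mature strand and lowers the translation and stability of matching mRNAs. In liver, mir-122 is the microRNA for which hepatocytes are best known, and mir-33a and mir-33b lie within genes of the sterol regulators SREBF2 and SREBF1. Names written with mir in lower case stand for stem-loops, so the probe sets are named for the precursor, and the random-primed labelling of the array was not a small RNA assay. A probe set can therefore read the stem-loop, the transcript that carries it, or sequence like it elsewhere, and these cannot be told apart here. In the identifiers, the ending s marks probes shared by several transcripts and x marks probes that can cross-hybridize. The median level was 2.12 with the ending s, 1.71 with x and 2.29 with neither.

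The tissue carried the marks of liver, with ALB, TTR, TF, SERPINA1 and FGB, secreted proteins of hepatocytes, at mean log2 values between 12.62 and 14.06 in low RFI pigs and between 12.55 and 14.03 in high RFI pigs. AHSG, another hepatocyte product, stood at only 1.59 in low RFI and 1.74 in high RFI pigs. The array does not separate cell types, so fewer cells of a type and less RNA per cell cannot be told apart. On the first principal component of all probe sets (14.8% of the variance), 5 high RFI pigs had scores between 7.77 and 40.05 and the 6 low RFI pigs between -37.54 and -8.73. P317, labelled high RFI, lay at -28.15 among the low RFI pigs, so RFI results are also given without it. P317 was picked by these same values, so leaving it out favours differences between the classes. Over all probe sets, 15 were called with P317 and 1345 without it. When the component was computed over the microRNA-named probe sets alone (12.4% of the variance), another pig stood apart. The low RFI male P307 lay at -20.82, and the other 11 pigs lay between -0.86 and 6.03.

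Most microRNA-named probe sets read at the level of the array's own background. The array holds 69 rows of background probes that match no transcript, 3 for each GC count between 3 and 25, and these averaged between 1.20 and 7.67 with a median of 2.29. The microRNA-named probe sets spanned 0.95 to 14.05, with a median of 2.17 and quartiles of 1.52 and 4.21, whereas the 45864 transcript probe sets of the array (SNOWBALL) had a median of 3.55. Only 72 of the 1858 (3.88%) lay above the 95th percentile of the background rows, 7.48, against 5.95% of the SNOWBALL probe sets. Of the 72, 28 carried the human prefix (3.83% of those with it), 22 the mouse (4.93%), 19 the cattle (3.05%) and 3 the pig prefix (5.17%). Against the median background row the count was 888 (47.8%), against 68.9% of the SNOWBALL probe sets. The GC content of the microRNA-named probes was not used here, so each could not be set against background rows of its own GC count. In what follows, above background means above 7.48 in the mean over all pigs.

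**Figure D1:**
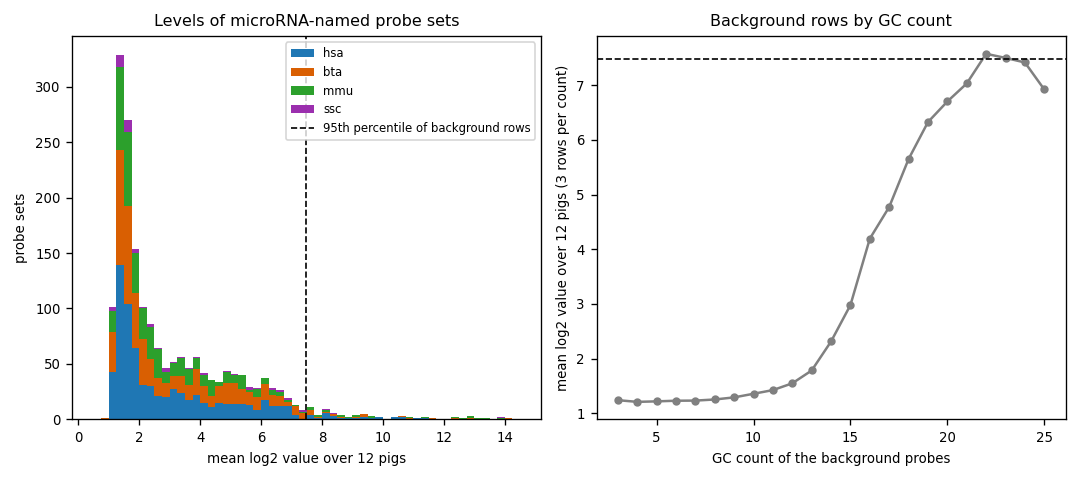
Left, number of microRNA-named probe sets by mean log2 value over 12 pigs, stacked by species prefix, with the 95th percentile of the background rows (7.48) as a dashed line. Right, mean log2 value of the background rows by GC count of their probes, which climbs with the GC count up to 22 and spans most of the range of the microRNA-named probe sets.

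The brightest microRNA-named probe sets were nearly constant between pigs. The cattle probe set bta-mir-2904-1 had a lowest value of 13.92, a median of 14.03 and a highest of 14.15 in low RFI pigs, against 13.97, 14.08 and 14.12 in high RFI pigs. The pig probe set ssc-mir-1285 lay between 13.85 and 14.04 in low RFI and between 13.86 and 14.04 in high RFI pigs. The classes overlapped throughout their range in both. They were followed by mmu-mir-2133-1 (mean over all pigs 13.93), mmu-mir-2134-1 (13.28), mmu-mir-2138 (13.07), bta-mir-328 (12.97), mmu-mir-2861 (12.97), mmu-mir-2140 (12.91), mmu-mir-2182 (12.50) and bta-mir-2887-1 (12.41). Several mouse entries of the mir-2133 to mir-2146 range were later withdrawn from the microRNA registry as fragments of ribosomal RNA. Among these 10 probe sets the SD over 12 pigs was between 0.04 and 0.20, and q of the RFI difference was between 0.65 and 0.84.

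The microRNAs known as abundant in liver did not stand out by level. Their list of 30 microRNAs was represented by 76 probe sets with a median of 2.28, and 1 of them was above background. This was bta-mir-483, a microRNA that in human lies within IGF2, with a lowest value of 7.70, a median of 7.95 and a highest of 8.13 in low RFI pigs, and 7.89, 7.99 and 8.20 in high RFI pigs. The probe set of mir-122, bta-mir-122, had 5.95, 6.64 and 7.49 in low RFI pigs, against 6.47, 7.17 and 7.74 in high RFI pigs. The ranges overlapped, and the difference of -0.40 ± 0.25 (SE) was not called (q = 0.65). The third brightest, bta-mir-193b, averaged 6.68 ± 0.58 in low RFI and 6.69 ± 0.40 in high RFI pigs (SD, n = 6 each). Probe sets of other liver microRNAs, picked here after their values were seen, were dimmer. The oncogenic and fibrosis-related mir-21 read 2.24 in bta-mir-21, the hepatic mir-192 read 2.73 in mmu-mir-192 and 3.89 in ssc-mir-192, and mir-148a read 1.63 in bta-mir-148a and 1.32 in mmu-mir-148a (means over 12 pigs).

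Lists for other tissues were much alike in level. Of 75 probe sets of microRNAs acting on lipid or glucose metabolism, 1 was above background, hsa-mir-33b at 8.57 ± 0.27 in low RFI and 8.57 ± 0.14 in high RFI pigs (SD, n = 6 each). Of 26 probe sets of muscle microRNAs 1 was above background, as was 1 of 37 for blood cells and 1 of 32 for neural cells. These were hsa-mir-499, in human within the cardiac myosin gene MYH7B, at a mean of 11.16 over all pigs, hsa-mir-150 of mature lymphocytes at 10.57, and hsa-mir-138-1 at 9.33. The muscle markers MYH1, MYH2, MYH7, ACTN2, CKM and MYBPC1 lay between 1.95 and 4.81 in low RFI and between 1.99 and 5.02 in high RFI pigs, all under the background threshold. In the let-7 family list, 2 of 22 probe sets were above background, and both were named for mir-202, hsa-mir-202 at 9.06 and ssc-mir-202 at 8.03. None of the 24 endothelial and stromal, 64 embryonic and placental and 35 mir-17 cluster probe sets was above background.

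**Figure D2:**
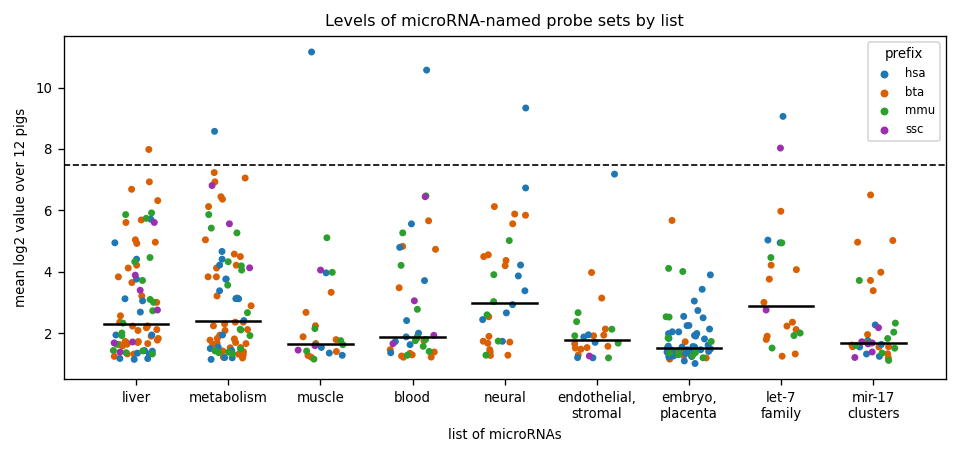
Mean log2 value over 12 pigs of each microRNA-named probe set (points, coloured by species prefix) in 9 lists, with the list median as a bar and the 95th percentile of the background rows as a dashed line. List medians lie between 1.5 and 2.98, and a few probe sets with the human prefix lie far above the rest of their list.

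Probe sets of the same microRNA from different species often read different levels. A pig transcript reaches probes of another species only as far as the sequences match, and probes also differ in how well they bind, so a gap in level between probe sets is not a difference in RNA amount. Over 641 pairs from 236 numbers, the median gap was 0.71, 59.0% of pairs lay within 1 log2 unit and 42 pairs were more than 4 apart. Across these pairs, which share probe sets and are not independent, the levels correlated at r = 0.55. The range within a number had a median of 1.20 over the 236 numbers. It was largest for mir-1285, where ssc-mir-1285 read 13.96 and hsa-mir-1285-1 and hsa-mir-1285-2 read 2.97 and 3.12. Among the numbers with at least 3 species it was largest for mir-499, where hsa-mir-499 read 11.16 and bta-mir-499 and mmu-mir-499 read 1.79 and 2.15. The brightest of mir-328, bta-mir-328 at 12.97, lay well above ssc-mir-328 at 7.32, hsa-mir-328 at 6.89 and mmu-mir-328 at 6.03. For mir-182, of the cluster known from sensory organs, hsa-mir-182 read 9.88, bta-mir-182 5.83 and mmu-mir-182 3.38. The spread between pigs was far smaller than these gaps, with the 12 pigs between 10.90 and 11.36 for hsa-mir-499 and between 1.22 and 2.47 for bta-mir-499. At the other end, the probe sets of mir-653, mir-302b, mir-217, mir-17 and mir-154 lay close together, all with medians under 1.9 in either class. The pig prefix did not go with a higher median, at 2.05 for ssc, against 2.2 for bta, 2.08 for hsa and 2.2 for mmu. The upper quartile was 4.68 for ssc, against 4.55 for bta, 4.07 for hsa and 3.85 for mmu.

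**Figure D3:**
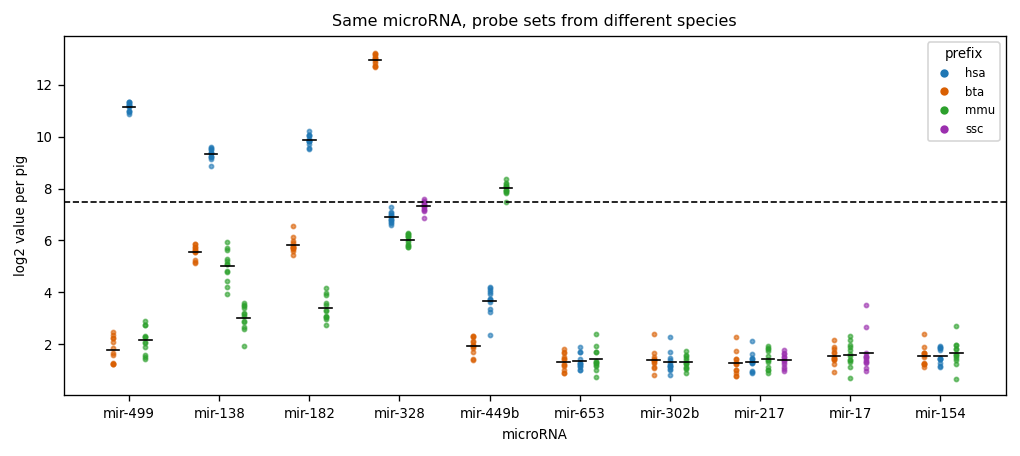
Log2 value of each pig (points, coloured by species prefix, with the mean as a bar) for the 5 microRNA numbers with the largest (left) and the 5 with the smallest (right) range of level among at least 3 species. The dashed line is the 95th percentile of the background rows. In the left group the brightest and the dimmest probe set of a number lie far apart beside the spread between pigs. Not all species are separate there, since the mean of mmu-mir-499 lies within the range of bta-mir-499.

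Away from the brightest, the microRNA-named probe sets scattered more between pigs than the rest of the array. Their median SD over 12 pigs was 0.39, against 0.22 for SNOWBALL probe sets, and it was 0.18 for those above background and 0.40 for the others. An SD over 0.9 was found for 26, none of them above background. The 3 that follow were picked after their values were seen. The highest SD, 1.52, belonged to bta-let-7b, with values between 0.98 and 5.31 in low RFI and between 2.04 and 5.20 in high RFI pigs, while hsa-let-7b and mmu-let-7b had SDs of 0.46 and 0.27. In ssc-mir-204, P307 had 5.05 and the other 11 pigs between 0.91 and 1.98. In hsa-mir-146a, of the NF-kB response, P307 had 4.37 and the other pigs between 1.02 and 2.19. P307 lay more than 1 log2 unit from the median of the other pigs in 140 microRNA-named probe sets, 87 higher and 53 lower (7.54%). In the other pigs this share was between 3.18% and 6.84%. In SNOWBALL probe sets it was 1.48% for P307 and between 0.87% and 1.46% for the others.

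Between the RFI classes, no microRNA-named probe set was called as differentially expressed with all pigs and no filter on SD. The study itself, at the same q threshold but with its filter, listed microRNA-named probe sets as altered. Among them were bta-mir-2378, hsa-mir-219-1 and mmu-mir-142. With the class as sole factor, 0 of 1858 were called, against 15 of all 47845 probe sets (0.0314%), and the smallest q was 0.37. At an unadjusted p under 0.05 there were 163 (8.77%), against 7.29% of all probe sets. Of these, 68 were higher in low RFI pigs (3.66%, against 3.79% of all) and 95 were lower (5.11%, against 3.51%). At a p under 0.01 there were 47 (2.53%, against 1.66%). In 6 the classes did not overlap (0.323%, against 0.339%). Of the 163, 5 were above background, against 72 of all 1858 (3.88%). A difference over 0.5 in size was seen in 6.62% of the microRNA-named probe sets and in 2.23% of all.

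Without P317, 46 microRNA-named probe sets were called at q under 0.30 (2.48%, against 2.81% of all probe sets), 14 higher (0.753%, against 1.9%) and 32 lower (1.72%, against 0.915%) in low RFI pigs. Of these 46, 45 were not above background, and only 72 of all 1858 (3.88%) were above it. With the study's filter, which leaves out probe sets of very low SD over all pigs or very high SD within a class, 814 were tested and 53 called (6.51%, against 2.66%). The filter uses the SD within classes, on which the class test also rests, so it favours classes that lie apart. It kept 814 of 1858 microRNA-named probe sets but 35844 of all 47845, so the shares called come from unlike selections. With the filter, 20 were higher (2.46%, against 1.64%) and 33 lower (4.05%, against 1.02%) in low RFI pigs. Of the 46 called without P317, 27 were also called with the filter and 17 were left out by it. Without P307, 0 were called and 163 had a p under 0.05.

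Among those higher in low RFI pigs, hsa-mir-1296 differed most. It had a lowest value of 2.39, a median of 3.21 and a highest of 3.57 in low RFI pigs, against 1.43, 1.93 and 2.91 in high RFI pigs, a difference of 1.05 ± 0.25 (SE, q = 0.44). The classes overlapped through a single high RFI pig near 2.9. The pig gene for mir-1296 lies within JMJD1C, a histone demethylase family gene that in liver acts in lipogenesis, and JMJD1C averaged, by the labels, 7.01 in low RFI and 6.10 in high RFI pigs (difference 0.90, q = 0.44). Its cattle counterpart bta-mir-1296 read 1.58 in low RFI and 1.79 in high RFI pigs (q = 0.78), and a SNOWBALL probe set annotated to MIR1296 differed by 0.13 (q = 0.81). In bta-mir-2378 the classes did not overlap. It had 4.35, 4.45 and 5.39 in low RFI pigs, against 3.09, 3.67 and 4.22 in high RFI pigs, a difference of 0.99 ± 0.21 (SE, q = 0.44). The classes were also apart in bta-mir-2284v, of a large cattle family, with 4.38, 4.77 and 4.85 in low RFI and 2.62, 4.13 and 4.36 in high RFI pigs. Without P317, bta-mir-2378 was called at q = 0.17, hsa-mir-1296 at q = 0.20 and bta-mir-2284v at q = 0.28.

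The others of the 10 largest positive differences with a p under 0.01 were hsa-mir-892b (0.81), hsa-mir-1303 (0.76), bta-mir-3581 (0.73), hsa-mir-146b (0.72), mmu-mir-327 (0.64), mmu-mir-142 (0.64) and mmu-mir-181b-2 (0.62). The microRNA mir-142 is known from blood cells, and mmu-mir-142 had 1.77, 2.02 and 2.66 in low RFI pigs, against 1.07, 1.54 and 1.71 in high RFI pigs. The classes did not overlap (q = 0.44), but both medians lay under that of the background rows, and a SNOWBALL probe set annotated to MIR142 differed by 0.04 (q = 0.87). The microRNA mir-181b is known from lymphocytes, and mmu-mir-181b-2 had 1.81, 2.18 and 2.54 in low RFI and 1.03, 1.61 and 1.88 in high RFI pigs. Its cattle counterpart bta-mir-181b-2 differed in the other direction, with 1.29 ± 0.10 in low RFI and 1.64 ± 0.27 in high RFI pigs (SD, n = 6 each, q = 0.52). The remaining 5 probe sets of mir-181b differed by -0.18 to 0.28. Beside these, PTPRC, the leukocyte marker CD45, averaged 5.81 in low RFI and 5.40 in high RFI pigs (q = 0.60), and CD163 of macrophages averaged 7.08 in low RFI and 6.40 in high RFI pigs (q = 0.54). Without P317, CD163 was called, with a difference of 0.80 (q = 0.28). These values are those of the brightest probe set of each gene. With all pigs, the other probe set differed by 0.03 for PTPRC and by -0.05 for CD163. CD3E, MS4A1, HBB and SPI1 differed by -0.15 to 0.14. Of the 6 blood markers named on the array, 2 had a p under 0.05, both higher in low RFI pigs, and their part in the microRNA values was not tested.

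Among those lower in low RFI pigs, hsa-mir-219-1 had the smallest q of all microRNA-named probe sets. The microRNA mir-219 is known for the maturation of oligodendrocytes. Its human probe set had 2.07, 2.56 and 2.89 in low RFI pigs, against 2.86, 3.37 and 3.52 in high RFI pigs, a difference of -0.74 ± 0.15 (SE, q = 0.37). The classes touched only at P317, the lowest high RFI pig, and q was 0.10 without it. The cattle probe set bta-mir-219-1 went the same way, with 4.32 ± 0.40 in low RFI and 4.78 ± 0.27 in high RFI pigs (SD, n = 6 each, difference -0.46, q = 0.55). Of the 236 numbers with at least 2 species, 59 had a probe set at a p under 0.05. More than 1 was found in 5, namely mir-7, mir-181b, mir-219, mir-449c and mir-665. The 236 numbers hold 659 probe sets, and 7.29% of all probe sets on the array had such a p. In mir-219, mir-665 and mir-449c the probe sets at a p under 0.05 shared their direction. They were lower in low RFI pigs for mir-219 and mir-665 and higher for mir-449c. In mir-181b they went opposite ways, with 0.62 in mmu-mir-181b-2 and -0.35 in bta-mir-181b-2. In mir-7 both were cattle probe sets, bta-mir-7 (-0.69) and bta-mir-7-2 (-0.61). For mir-7, of neurons and pancreatic islets, the human probe sets hsa-mir-7-2 and hsa-mir-7-3 differed by 0.04 and 0.42 (q = 0.85 and 0.70).

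The largest negative difference was that of bta-mir-301b, a member of the mir-130 and mir-301 family. It had 1.84, 2.40 and 2.79 in low RFI pigs, against 2.0, 3.87 and 4.97 in high RFI pigs, a difference of -1.39 ± 0.43 (SE, q = 0.51). The high values were those of the 3 high RFI males, P301 at 4.14, P302 at 4.97 and P303 at 4.92, whereas the high RFI females had 2.84, 2.0 and 3.6. The interaction of sex and RFI class was 2.34 ± 0.49 (SE) and was not called (q = 0.96). The mouse probe set mmu-mir-301b differed by -0.17 (q = 0.72). The other large negative differences with a p under 0.01 were those of mmu-mir-680-3 (-1.11), mmu-mir-345 (-1.01), bta-mir-3600 (-0.84), hsa-mir-3158-1 (-0.78), mmu-mir-320 (-0.71), hsa-mir-194-2 (-0.70), mmu-mir-1964 (-0.69) and bta-mir-7 (-0.69). In both mmu-mir-345 and mmu-mir-320, P307 was the lowest low RFI pig. Without it, mmu-mir-345 differed by -0.70 and mmu-mir-320 by -0.54.

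Of the liver microRNAs, hsa-mir-194-2 belongs to the mir-192 and mir-194 pair of hepatocytes and gut epithelium, and had 1.49, 2.45 and 2.80 in low RFI pigs, against 2.60, 3.04 and 3.44 in high RFI pigs. The other 4 probe sets of mir-194 differed by -0.46 to 0.16, with a q between 0.65 and 0.88. The precursor of mir-320 is made without DROSHA, and mmu-mir-320 had 4.22, 5.31 and 5.41 in low RFI pigs, against 5.09, 5.85 and 6.22 in high RFI pigs, while bta-mir-320, bta-mir-320-1 and ssc-mir-320 differed by 0.51, -0.35 and 0.21 (q = 0.71, 0.63 and 0.75). The classes overlapped in all of these.

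**Figure D4:**
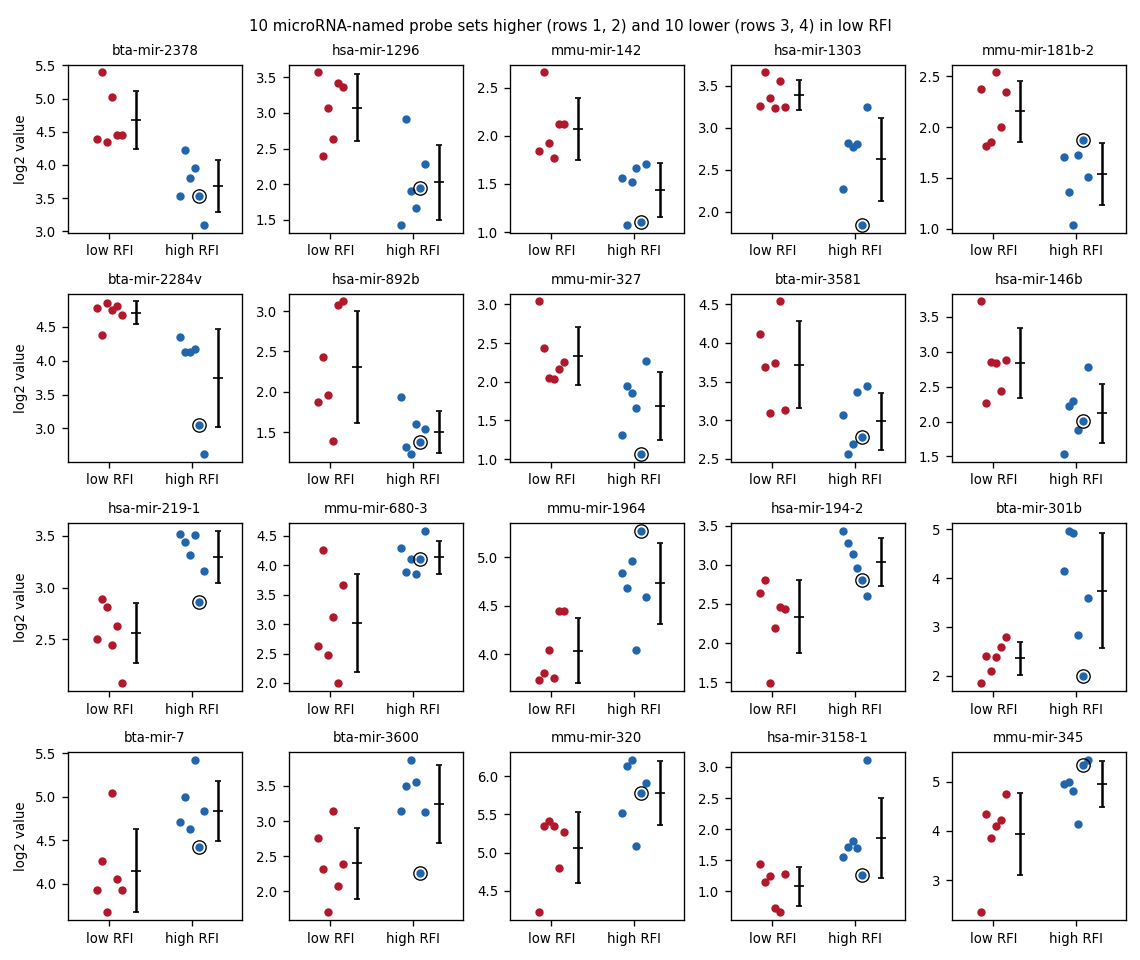
Log2 value of each pig (points) for the 10 microRNA-named probe sets with the largest positive (rows 1 and 2) and the 10 with the largest negative (rows 3 and 4) differences at a p under 0.01, low RFI left and high RFI right, with mean ± SD (n = 6). P317 is circled. The classes are fully apart in bta-mir-2378, bta-mir-2284v and mmu-mir-142 only, and the vertical axes differ and do not start at 0.

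Same-numbered probe sets shared little in their differences. Over the 641 pairs of 236 numbers, 51.8% had the same sign of difference and the differences correlated at r = 0.01. SNOWBALL probe sets that the platform annotation gives a MIR symbol numbered 100, of which 2 were above background and 9 had a p under 0.05 between the classes (9.0%, against 7.29% of all probe sets). They made 197 pairs with microRNA-named probe sets of the same symbol, with a median gap in level of 0.71, r = 0.65 across pairs, and the same sign of difference in 52.3%. Some of these pairs join unlike names, such as bta-mir-1282 with MIR128-2 and hsa-mir-93 with MIR9-3, and are doubtful. In 1 case picked after its values were seen, bta-mir-885 and a SNOWBALL probe set annotated to MIR885 were close in level, at 5.69 and 5.66, and both had lower means in low RFI pigs, with differences of -0.46 in each (q = 0.57 and 0.50). ATP2B2, within which the gene lies, differed by 0.15 (q = 0.80).

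The direction of the differences went with level. The median difference was -0.02 over all 1858 microRNA-named probe sets and -0.01 over all 47845, but -0.08 over the 72 above background, of which 83.3% were lower in low RFI pigs. In the band between 6 and 8 it was -0.09 (71.2% lower) and above 8 it was -0.07 (57 probe sets, 80.7% lower). SNOWBALL probe sets of the same bands had -0.02 and -0.003, and the 21 background rows between 6 and 8 had -0.13. The background rows of GC count 17 to 24, a range taken from earlier results of these data, averaged 6.55 ± 0.08 in low RFI and 6.69 ± 0.11 in high RFI pigs (SD, n = 6 each, exact permutation p = 0.039, two-sided), and over all 69 rows the difference was -0.06 (exact permutation p = 0.13). Since the range came from these data, the p of 0.039 is not an independent test. Taken by single GC count, the smallest Benjamini-Hochberg adjusted permutation p was 0.16. At GC count 25, outside the range, the difference was -0.03. With the mean of the rows of GC count 17 to 24 as a covariate, the median differences were -0.03 between 6 and 8 and 0.01 above 8, and 7.59% of the microRNA-named probe sets had a p under 0.05, against 4.77% of all. With that covariate the difference was -0.69 for hsa-mir-219-1, 1.02 for hsa-mir-1296 and 0.87 for bta-mir-2378, and -0.70 for bta-mir-301b.

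**Figure D5:**
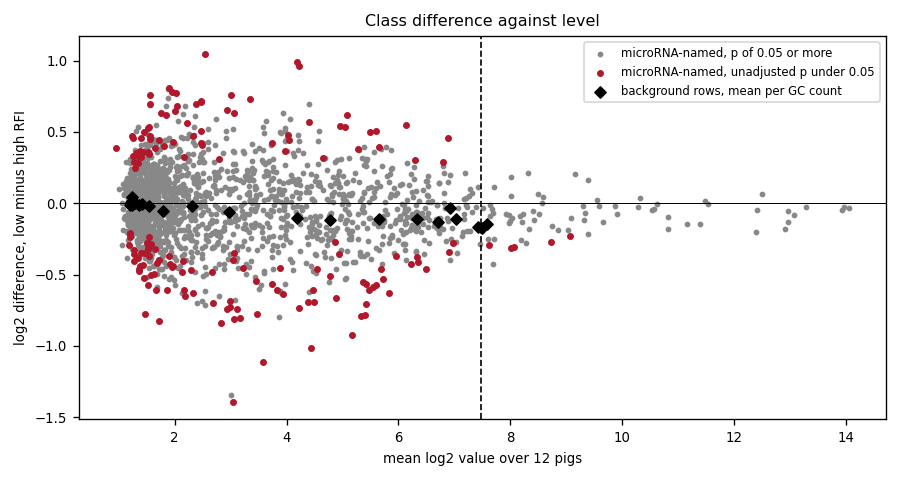
Difference in mean log2 value, low minus high RFI, against the mean over 12 pigs for the 1858 microRNA-named probe sets (grey, and red at an unadjusted p under 0.05) and the background rows (black diamonds, mean of 3 rows per GC count). The dashed line is the 95th percentile of the background rows. Differences fan out at low levels, and those of the bright probe sets and the brighter background rows lie mostly below 0.

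By list, the counts at a p under 0.05 stand against 3.79% higher and 3.51% lower in low RFI pigs over all probe sets. Of the 76 liver probe sets, with a median difference of -0.04, 3 were higher (3.95%) and 5 lower (6.58%). Of the 75 metabolism probe sets, with a median of -0.08, 2 were higher (2.67%) and 7 lower (9.33%). The other lists had between 0 and 3 higher and between 0 and 4 lower, the most being 3 of 37 higher for blood cells (8.11%) and 4 of 32 lower for neural cells (12.5%), with medians between -0.11 for muscle and 0.07 for the mir-17 clusters. None was called at q under 0.30 with all pigs. Without P317, 3 of 75 were called in the metabolism list and 2 of 76 in the liver list. The counts were 3 of 37 for blood cells, 3 of 32 for neural cells and 1 of 26 for muscle. They were 1 of 64 for the embryonic and placental list, 1 of 35 for the mir-17 clusters and 0 in the other lists. Without P317, 2.81% of all probe sets and 2.48% of the microRNA-named ones were called. Among the metabolism list, bta-mir-10b, of a Hox cluster, had 1.79 ± 0.36 in low RFI and 1.27 ± 0.21 in high RFI pigs (SD, n = 6 each, q = 0.51). Among the liver list, mmu-mir-802, which in mouse impairs glucose metabolism in obesity, had 1.13 ± 0.35 in low RFI and 1.59 ± 0.33 in high RFI pigs (SD, n = 6 each, q = 0.55), with P308 the highest low RFI pig and P317 the lowest high RFI pig. Of the 7 list members above background, only hsa-mir-202 had a p under 0.05, with 8.95 ± 0.17 in low RFI and 9.17 ± 0.08 in high RFI pigs (SD, n = 6 each, q = 0.57).

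Between the sexes, 1 microRNA-named probe set was called at q under 0.30 with RFI class as a covariate, against 19 of all probe sets (0.0397%). This was bta-mir-660, named for a microRNA that in human lies on the X chromosome. It had a lowest value of 1.41, a median of 1.51 and a highest of 1.84 in the 6 females, against 0.81, 1.11 and 1.16 in the 6 males, a difference of 0.52 ± 0.10 (SE, q = 0.27). The sexes did not overlap, but all values lay under the median background row of 2.29, and hsa-mir-660, at 5.45 in females and 5.22 in males, differed by 0.24 (q = 0.85). With 1 pig left out, bta-mir-660 was called in 2 of 12 fits, those without P309 and without P324, with a difference between 0.47 and 0.56 and a q between 0.20 and 0.54 over the 12. At an unadjusted p under 0.05 there were 130 (7.0%, against 6.11%), 59 higher (3.18%, against 3.1%) and 71 lower (3.82%, against 3.01%) in females. For the interaction of sex and RFI class, limma called 0 microRNA-named and 0 of all probe sets (0%), with 159 microRNA-named probe sets at an unadjusted p under 0.05 (8.56%, against 4.44%).

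The genes that make and use microRNAs were then compared between the classes, each by its brightest probe set. Of the nuclear genes for cropping and export, 8 of 10 were named on the array, and none had a p under 0.05 in that probe set. DROSHA averaged 2.17 ± 0.28 in low RFI and 2.13 ± 0.18 in high RFI pigs, and DGCR8 averaged 6.01 ± 0.22 in low RFI and 6.06 ± 0.10 in high RFI pigs (SD, n = 6 each). DICER1 averaged 5.86 ± 0.23 in low RFI and 5.76 ± 0.19 in high RFI pigs (SD, n = 6 each). The Argonaute genes carry their older EIF2C symbols, and EIF2C2, which is AGO2, averaged 6.53 ± 0.37 in low RFI and 6.72 ± 0.08 in high RFI pigs (SD, n = 6 each, q = 0.70). EIF2C4, which is AGO4, had 5.89, 6.18 and 6.33 in low RFI pigs, against 5.19, 5.57 and 5.99 in high RFI pigs, a difference of 0.57 (q = 0.44). Of its 4 probe sets, only 1 had a p under 0.05, and their differences lay between -0.06 and 0.57. EIF2C4 was the only gene whose brightest probe set had a p under 0.05 in the lists of dicing and loading (7 of 12 named on the array), silencing (9 of 11) and turnover (8 of 13). Without P317, EIF2C4 was called at q = 0.16 and TNRC6A, which binds Argonaute proteins, at q = 0.27. Over all 95 probe sets of these 32 genes, 11 had a p under 0.05 (11.6%, against 7.29% of all probe sets), 9 higher and 2 lower in low RFI pigs. They lay in NCBP1, NCBP2, DICER1, EIF2C4, TNRC6A, TNRC6B, XRN1 and ZCCHC11, with 6 of the 33 silencing probe sets, all higher, in TNRC6A, TNRC6B and the exonuclease XRN1. Without P317, 7 of the 95 were called (7.37%, against 2.81%), 6 in these silencing genes and 1 in EIF2C4. The name XPO5, for the exporter of precursors, was not among the annotated symbols used here.

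Host genes were compared with the microRNAs that lie within them. By the RefSeq annotation of the pig genome, 132 microRNA-named probe sets were matched to microRNA genes within 63 host genes named on the array. Several shared a host. Some pairs are doubtful, since bta-mir-1282 was set to ARPP21, the host also given for hsa-mir-128-2, and bta-mir-1281 to R3HDM1. Both stayed in the counts, and bta-mir-1281 had a p under 0.05. The difference of a probe set had the same sign as that of its host in 47.7%. A p under 0.05 was seen in 6 of the hosts (9.52%) and in 16 of the microRNA-named probe sets (12.1%), against 7.29% of all probe sets, and in both only for the pair of hsa-mir-1296 and JMJD1C. Among microRNAs whose host is known from human, hsa-mir-33b differed by -0.002 (q = 0.88) and SREBF1, which drives lipogenesis, by -0.27 (q = 0.70), at 6.49 in low RFI and 6.76 in high RFI pigs. Likewise bta-mir-483 differed by -0.08 (q = 0.77) and IGF2, a growth factor made in liver, by -0.05 (q = 0.81), at 12.57 in low RFI and 12.63 in high RFI pigs.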

How the data were processed

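Liver RNA of 12 pigs, 6 low RFI and 6 high RFI by the labels, was hybridized to 1 array each. Scanning used GCOS 1.1.1 per the labels, and the authors normalized the intensities by RMA, so that the deposited table holds log2 intensities for 47845 probe sets. The extraction and labelling kits given in the paper and in the labels differ. Arrays have no depth, so their number limits the precision. All probe sets were fitted in R 4.3.3 and limma 3.58.1 on the RFI class alone, and Storey's q was estimated over lambda between 0.05 and 0.90 in steps of 0.05, with q under 0.30 as the call. Sex was tested beside the class and, in a second model, by its interaction with it. The code of the fit was tested on simulated data with changes of at least 1 log2 unit. Only 5 microRNA-named probe sets differed by more than 1, so this does not give the power for most differences seen here. Means over background rows were compared by exact permutation tests over samples.

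The probe sets named are those called, the 10 largest differences in each direction at a p under 0.01, probe sets of the same number, the 10 brightest, the 3 brightest and up to 4 at a p under 0.05 in each list, the numbers of widest and narrowest range, and the main processing genes. The members and lists were chosen with earlier results of these data known. The study balanced its selection for litter and sex, but litters are not in the labels, so the fit leaves sibling pairs out and p-values measure only the spread between these pigs. Genes were named from the platform annotation, each by its brightest probe set, and hosts were found by containment in the RefSeq table of Sscrofa11.1, in which 345 microRNA-named probe sets matched a single microRNA gene. MicroRNA genes on unplaced scaffolds were left out of the host pairs. Beyond this containment, the coordinates of the RefSeq table were not used, since the build differs. Alternatives changed the covariates, filter, scaling, variance model, threshold, background threshold and samples.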

Additional observations from a re-analysis of the deposited data

Results flagged for a closer look

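In Dixon's test at its 95% critical value, run on 258 groups of 6 pigs (the named probe sets and 5 processing genes in each RFI class), 23 had a pig far from the other 5. Chance flags about 1 in 20 groups, and the values follow without explanation. The low RFI pig P308 lay apart in bta-mir-320-1 (6.01, others 6.83 to 7.32), mmu-mir-802 (1.80, others 0.81 to 1.12), bta-mir-302b (2.39, others 1.13 to 1.5) and ssc-mir-17 (3.53, others 0.97 to 1.53). The low RFI pig P324 lay apart in bta-mir-7-1 (5.06, others 5.90 to 6.34), bta-mir-214 (2.89, others 4.20 to 4.56) and DICER1 (6.31, others 5.70 to 5.87). The low RFI pig P309 lay apart in bta-mir-200b (1.24, others 1.89 to 2.12). The low RFI pig P307 lay apart in bta-mir-202 (7.15, others 5.50 to 6.00) and bta-mir-217 (2.29, others 0.76 to 1.25). The high RFI pig P318 lay apart in hsa-mir-3158-1 (3.12, others 1.27 to 1.81), bta-mir-320 (2.27, others 4.08 to 5.12) and ssc-mir-345 (3.49, others 2.67 to 2.96). The high RFI pig P302 lay apart in bta-mir-219-1 (4.26, others 4.80 to 4.98). The high RFI pig P317 lay apart in hsa-mir-345 (3.82, others 1.43 to 1.84), mmu-mir-802 (0.94, others 1.63 to 1.81), hsa-mir-33b (8.30, others 8.55 to 8.70) and hsa-mir-499 (10.98, others 11.23 to 11.35). The high RFI pig P304 lay apart in hsa-mir-193b (3.89, others 2.33 to 2.79) and ssc-mir-17 (2.65, others 1.08 to 1.66). The high RFI pig P301 lay apart in ssc-mir-1 (4.91, others 3.94 to 4.21) and bta-mir-292 (5.13, others 5.60 to 5.86). The high RFI pig P303 lay apart in ssc-mir-486 (7.01, others 6.28 to 6.45). No interaction of sex and RFI class was called by limma among the microRNA-named probe sets.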

How the results depend on the processing

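Leaving out 1 pig at a time gave 0 to 46 microRNA-named probe sets called between the RFI classes, the 46 without P317 (high RFI replicate 5) and 0 without each other pig, and 147 to 185 at an unadjusted p under 0.05. The study's filter on SD gave 53 calls, and sex as a covariate, array quality weights and males alone gave 1 each. Under the other alternatives (limma with an intensity trend or robust moderation, females alone, the 2 other scalings, the GC covariate, no control rows, and Benjamini-Hochberg p under 0.05) 0 were called. The median difference of -0.02 became 0.04 when arrays were centred on the background rows and -0.04 when centred on the microRNA-named median, so its sign depends on the scaling. It was between -0.03 and -0.01 with 1 pig left out. Above background there were 888 with the median background row as threshold, 58 when every pig had to pass and 71 to 73 with 1 pig left out. A background matched on GC content was not run. For the sexes, 0 were called with the filter on SD or at a Benjamini-Hochberg p under 0.05, and 0 to 2 with 1 pig left out. Of the processing genes, each by its brightest probe set, 0 to 2 were called with 1 pig left out, an alternative added after seeing the data, the 2 without P317. The 38 named probe sets at a p under 0.05 kept their direction in all 817 values under these alternatives and passed q under 0.30 in 38 of them, 20 of these without P317 and 15 with the filter on SD. They were chosen by that p in the same pigs, so the kept direction is not independent support. The intensity trend, robust moderation, the filter on SD and sex as a covariate leave a difference unchanged here, so its direction could not turn. No paired analysis was possible because the labels give no litter or pair and the replicate numbers only name the pigs. With 6 pigs per class, the median SE of a difference was 0.20, so small differences were not detectable, and most probe sets lie where a level cannot be told from background.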
